A study of Mus musculus with 6 samples.

Results

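The genes described here act in mismatch repair and in homologous recombination, and were followed in mouse embryonic stem cells (mESCs) with and without Setd2. They were chosen as all probe sets whose platform annotation names 1 gene, that gene being one of 30 listed members. Of these, 28 members had such a probe set, and they held 63 of the 45037 probe sets of the deposited table. Rbbp8, which promotes end resection, and Xrcc2, which acts in strand exchange, were not analysed here. The members were compared by repair step between 3 arrays of Setd2 knockout mESCs and 3 arrays of Setd2 wild type mESCs. The labels call the arrays of a genotype biological repeats, and give both genotypes the strain 129SV/C57BL/6 and no specific treatment. They do not say whether the repeats came from separate clones or cultures, so the p-values measure the spread between these arrays. All cells had been grown on feeder cells, of which as many as possible were then removed by settling on gelatin and 1 passage without feeders. Values are log2 MAS5 signals. MAS5 is an Affymetrix method that summarises each probe set as a single signal. A probe set is a group of short probes against 1 or more transcripts.

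Mismatch repair removes bases that replication has paired wrongly. MutS proteins recognise the mismatch, MutL proteins join them, and an exonuclease removes the stretch of new strand, which is then made again. Homologous recombination mends a broken chromosome by copying the intact sister: the ends are cut back to single strands, coated by replication protein A and, with the help of the Brca proteins, paired with the homologous sequence. Setd2 is the methyltransferase that places the trimethyl mark H3K36me3 on histone H3 in the body of transcribed genes. In human cells this mark recruits the mismatch recognition protein MSH6 through its PWWP domain, and it has been tied to end resection and recombination through PSIP1 and RBBP8. Mouse embryonic stem cells divide fast, spend much of their cycle in S phase and rely heavily on both pathways.

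The knockout arrays gave lower signals than the wild type arrays for most of the members, by small amounts at the probe set of highest mean. Another probe set of Atm, Exo1 and Chek1 each differed by 2-fold or more. The share of all probe sets that did so is not given here, so whether this is unusual is not known. Of these the one of Atm passed the threshold without a block, as did 0.648% of all probe sets tested. With each member taken at its tested probe set of highest mean signal, 24 of the 28 members (85.7%) had a knockout minus wild type difference below 0, against 50.1% of the 12915 genes tested. The median difference of the members was -0.20 on the log2 scale, against a median of 0.00 over all genes tested, and the members ranged from -0.41 (Atm) to 0.30 (Chek2). None of the 28 passed limma's threshold, an adjusted p of 0.05 over all 27022 probe sets tested, which 0.736% of all genes passed, while 4 had an unadjusted p under 0.05 (13.4% of all genes). When replicate numbers were added to limma as blocks, Atm and Rpa3 fell and Chek2 rose, 3 of 28 where 9.87% of all genes passed (5.75% lower and 4.13% higher). The 3 knockout values lay below the 3 wild type values for 9 of the 28 members (9.97% of all genes) and above them for 1 member (9.26% of all genes).

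**Figure D1:**
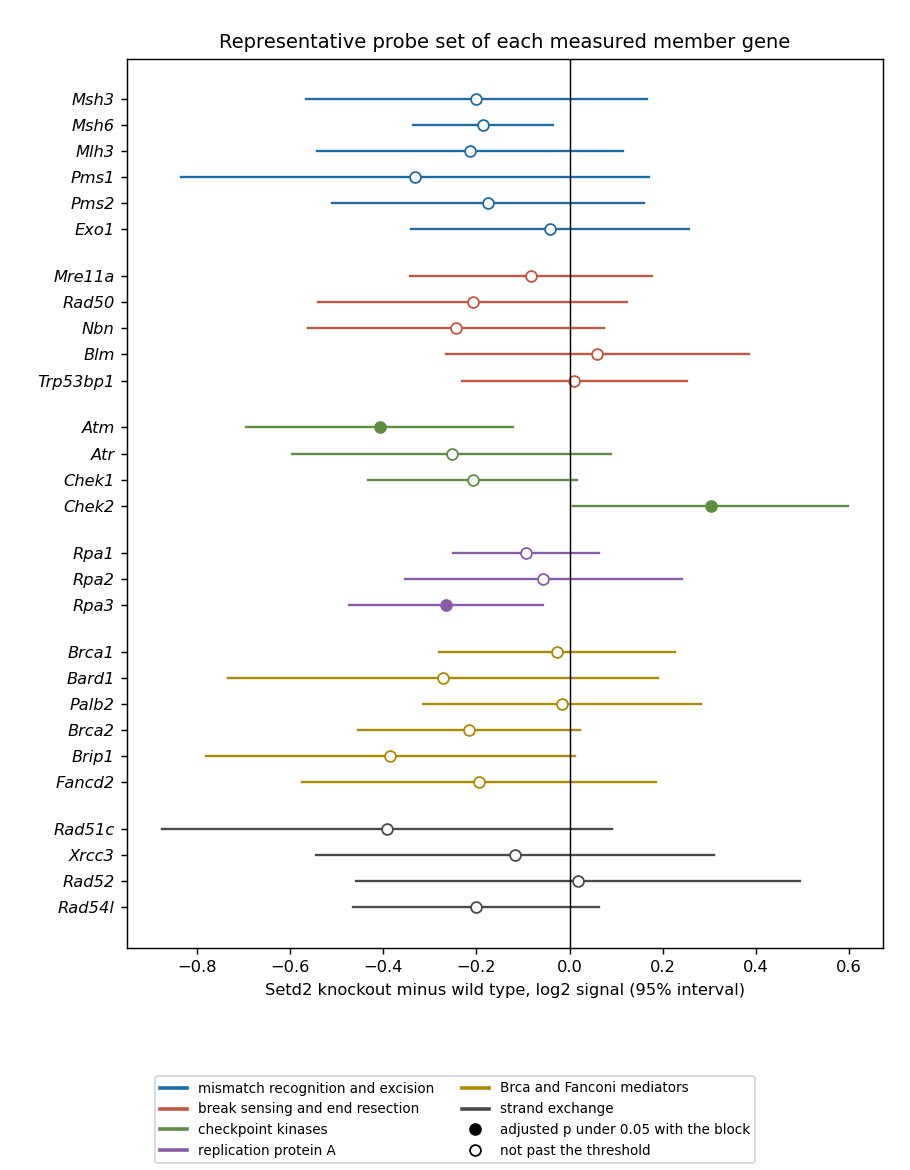
Knockout minus wild type difference on the log2 scale (horizontal axis) of each measured member at its tested probe set of highest mean signal, grouped by repair step (colour), with bars for the 95% interval of the limma fit without a block and filled points for an adjusted p under 0.05 with the replicate block. Most points lie between -0.41 and 0, and Chek2 stands apart on the other side at 0.30.

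The 4 members above 0 were Chek2 at 0.30, Blm at 0.06, Rad52 at 0.02 and Trp53bp1 at 0.01. Averaged over the 28 members, the log2 level was 10.07, 10.03 and 10.11 on the knockout arrays, against 10.21, 10.22 and 10.25 on the wild type arrays. The 2 genotypes did not overlap in this mean, while the mean over all genes tested was 8.93, 8.88 and 8.86 on the knockout arrays and 8.93, 8.87 and 8.87 on the wild type arrays. Within replicate numbers 1, 2 and 3 the median knockout minus wild type difference of the members was -0.18, -0.20 and -0.09. The difference was below 0 within each of the 3 numbers for 17 members, a pattern found in 23.6% of all genes. It was above 0 within each for 1 member, Chek2, as in 23.3% of all genes. In bulk RNA, fewer cells that express a gene and less RNA per cell cannot be told apart.

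**Figure D2:**
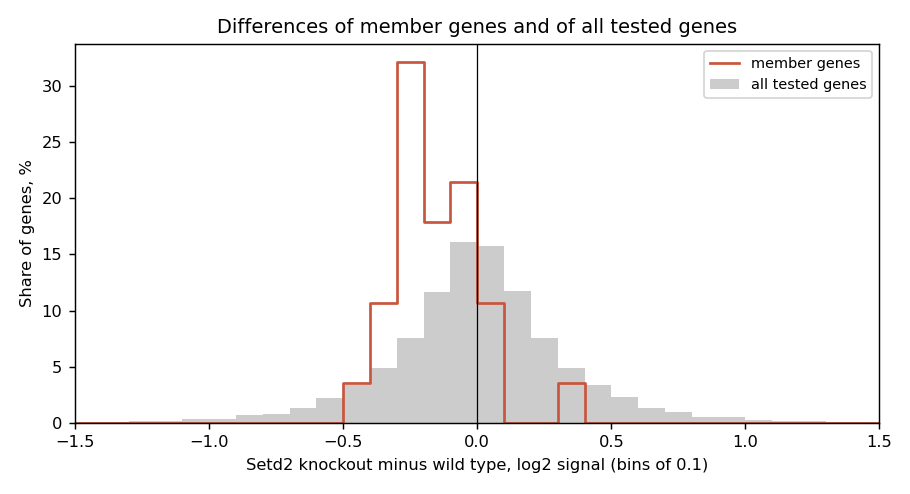
Share of genes (percent, vertical axis) in bins of the knockout minus wild type difference on the log2 scale (horizontal axis), for the 28 members (line) and for the 12915 genes tested (grey). Of the 28 members 24 lie to the left of 0 and 4 to the right, around a median of -0.20 and within the span of the grey distribution, whose median is 0.00.

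Setd2 itself was measured by 1 probe set, 1428555_at, which read 9.37, 9.50 and 9.60 on the knockout arrays and 10.31, 10.30 and 10.31 on the wild type arrays, so that it fell by 0.82 on the log2 scale (limma adjusted p = 0.0272). The deleted stretch of Setd2 is not stated in the labels, and whether these probes lie within it is not known. Without each array in turn its adjusted p ran from 0.0230 to 0.214, and it passed in 1 of 6 such fits, the one without knockout array 1. The labels do not say how the cell lines of the 2 genotypes are related, so genotype and cell line cannot be told apart. All 10 pluripotent cell markers were tested, with a median difference of 0.00, and 1 of them, Zfp42 on chromosome 8, fell by 1.99 on the log2 scale (limma adjusted p = 8.37e-05). Feeder fibroblast markers were present on all arrays. The mean log2 level of the 21 tested markers was 7.92, 9.02 and 8.89 on the knockout arrays and 8.05, 8.65 and 9.05 on the wild type arrays. Their median difference was -0.07, with 0 past limma's threshold, 3 with an unadjusted p under 0.05, and 2 higher and 1 lower with the replicate block. Over all genes tested, 13.4% had such an unadjusted p, and with the block 4.13% were higher and 5.75% lower. In both genotypes the array numbered 1 was the lowest, and the part of the feeder cells in the members' differences was not tested.

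Among the checkpoint kinases, Atm is the kinase that double-strand breaks activate through the Mre11, Rad50 and Nbn complex, and Atr the kinase that answers to single-stranded DNA at stalled forks. Chek1 and Chek2 are the kinases that carry the signals of Atr and Atm to the cell cycle. Over these 4 genes the median difference was -0.23.

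The Atm probe set 1421205_at had log2 signals of 7.67, 7.79 and 8.05 on the knockout arrays, against 9.65, 10.06 and 9.95 on the wild type arrays. All 3 knockout arrays lay more than a log2 unit below the lowest wild type array. This probe set fell by 2.05 log2 units (SE 0.17), a 4.15-fold lower signal (7.83 ± 0.19 in knockout and 9.89 ± 0.21 in wild type cells, SD, n = 3 each; limma adjusted p = 0.00195). This was the 1 member probe set of the 56 tested that passed without the block, where 0.648% of all probe sets passed. It passed as well without each array in turn (adjusted p from 0.00226 to 0.0276) and under every other alternative tried, and within numbers 1, 2 and 3 it differed by -1.98, -2.27 and -1.90.

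The other Atm probe set, 1428830_at, moved the same way by much less. It read 9.94, 10.07 and 10.13 on the knockout arrays and 10.29, 10.50 and 10.58 on the wild type arrays. The genotypes did not overlap, but they lay closer to each other than at the first probe set. Its difference of -0.41 (95% interval -0.69 to -0.12) missed the threshold without the block (limma adjusted p = 0.243) and passed with it (0.0157). Minus the second probe set, the first one gave -2.27, -2.29 and -2.08 on the knockout arrays, against -0.64, -0.44 and -0.63 on the wild type arrays. That gap differed by -1.64 between the genotypes (exact two-sided permutation test, p = 0.1, the smallest p that 3 against 3 arrays allow). The pair was set against each other after its values were seen. The files do not say which part of the Atm transcript each probe set reads, so the array gives 2 unequal values for the gene.

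Atm lies on chromosome 9, as do Setd2, Mre11a, Chek1 and Atr. Over the 10 tested genes on each side of Atm, in the order of the RefSeq table of assembly GRCm38.p6, the median difference was -0.15. Of these 20 genes, 15 (75%) were below 0, against 50.1% of all genes tested, and 0 passed limma's threshold. The 730 tested genes of chromosome 9 had a median of -0.03, with 54.8% below 0, and 8 of them passed, where 0.736% of all genes did. Npat, the neighbour that is transcribed from the same intergenic stretch in the opposite direction, differed by 0.01 (limma adjusted p = 0.985).

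Chek2, the 1 member that rose with the block, read 10.98, 10.71 and 10.68 on the knockout arrays and 10.64, 10.42 and 10.41 on the wild type arrays. Each knockout array was above every wild type array, though the lowest knockout value cleared the highest wild type value by little. The difference was 0.30 ± 0.13 (SE; limma adjusted p = 0.418; 0.0433 with the replicate block). Within the 3 numbers it was 0.34, 0.29 and 0.27.

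The upstream sequences of Atm and Chek2 are shown because these kinases of 1 pathway passed the threshold in opposite directions in the fit with the block. In that fit 2 of the 28 members fell and 1 rose, where 9.87% of all genes passed, a share near that of the members. Chek2 passed in 1 of 13 alternatives, the one with the block. Each is the stretch of 250 bases before the annotated start, 5′ to 3′ on the strand of the gene, from RefSeq with build GRCm38.p6. The Atm stretch is chr9:53536672-53536921 on the minus strand and the Chek2 stretch chr5:110839733-110839982 on the plus strand. Capitals mark the letters CCAAT and the E2F-type letters TTTCCCGC, TTTGGCGC, TTTCGCGC and TTTGCCGC, on either strand. E2F factors drive many genes of S phase, and the CCAAT box is bound by NF-Y.
Atm: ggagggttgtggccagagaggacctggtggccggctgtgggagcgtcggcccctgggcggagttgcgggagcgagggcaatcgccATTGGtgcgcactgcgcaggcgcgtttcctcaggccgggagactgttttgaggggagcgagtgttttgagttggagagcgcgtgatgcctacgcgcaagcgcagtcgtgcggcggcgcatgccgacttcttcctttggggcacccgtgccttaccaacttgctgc
Chek2: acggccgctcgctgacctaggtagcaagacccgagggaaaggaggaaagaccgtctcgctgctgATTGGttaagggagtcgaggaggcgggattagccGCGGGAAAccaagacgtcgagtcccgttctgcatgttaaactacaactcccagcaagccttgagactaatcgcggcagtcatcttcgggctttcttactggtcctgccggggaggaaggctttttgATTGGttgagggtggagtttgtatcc
The Atm stretch held 1 CCAAT box and 0 E2F-type matches, and the Chek2 stretch 2 CCAAT boxes and 1 E2F-type match. A promoter was matched for 24 of the 28 members, with 27 annotated starts among them. E2F-type letters stood in 14.8% of these 27 stretches (Bard1, Brca2, Chek2 and Msh3) and in 1.86% of all 32851 stretches of the same length in the table. CCAAT stood in 63% of them and in 33.8% of all. The 32851 stretches were not limited to genes tested on these arrays, as the members were, and the differences in share were not tested. These are matches of letters, and no binding was measured.

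Chek1 was read by 5 probe sets, all lower in knockout cells. The one of highest mean, 1449708_s_at, read 10.93, 10.94 and 11.08 on the knockout arrays, against 11.13, 11.23 and 11.22 on the wild type arrays. The genotypes parted without overlap and by a small margin, at a difference of -0.21 ± 0.10 (SE; limma adjusted p = 0.467; 0.133 with the block). Probe sets 1450677_at and 1439208_at differed by -0.25 and -0.37 (limma adjusted p = 0.448 and 0.475).

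A dimmer Chek1 probe set, 1420032_at, read 5.13, 6.08 and 5.97 on the knockout arrays and 6.63, 7.03 and 6.86 on the wild type arrays. Its difference of -1.12 ± 0.31 (SE) missed the threshold (limma adjusted p = 0.197) and passed with the replicate block (0.0300). Beside 1449708_s_at on the same arrays its gap between the genotypes was -0.91 (exact two-sided permutation test, p = 0.1, the smallest possible), a pair chosen after its values were seen. The remaining probe set, 1420031_at, was under the filter on dim signals, at 4.12 ± 0.62 in knockout and 5.44 ± 0.20 in wild type cells (SD, n = 3 each), and was not tested. Atr differed by -0.25 (95% interval -0.59 to 0.09) at its probe set of highest mean, with overlapping genotypes, and by -0.13 at both others.

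**Figure D3:**
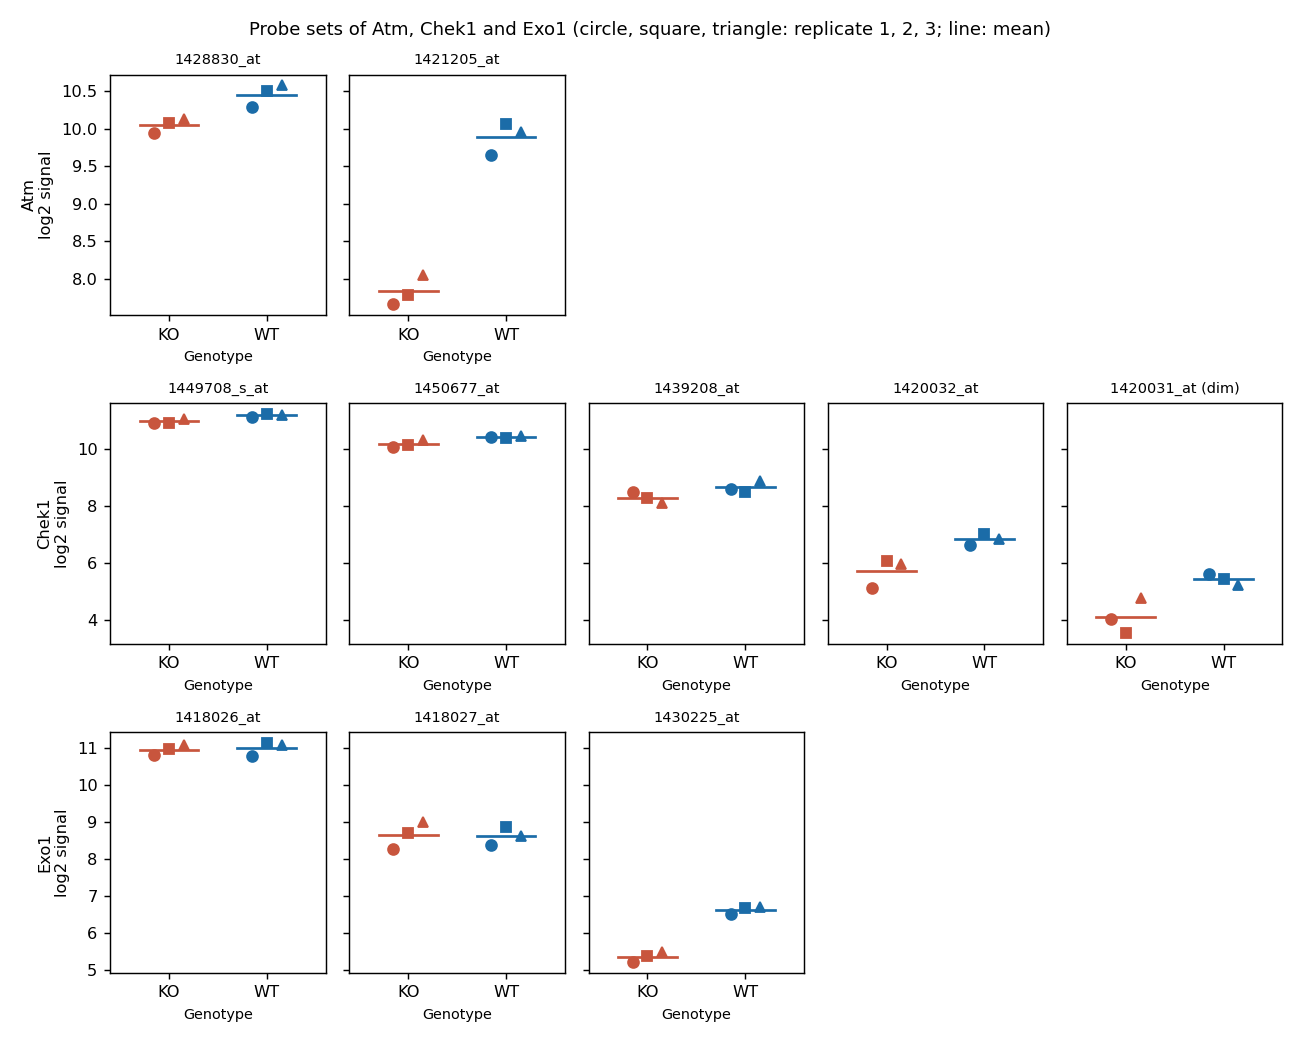
Log2 signal (vertical axis, shared within a row) of each probe set of Atm, Chek1 and Exo1 on the 3 knockout arrays (left in each panel) and the 3 wild type arrays (right), with symbols for the replicate number and lines for the genotype means. The gap is widest at Atm 1421205_at, 7.83 against 9.89, and narrow at the probe sets of highest mean of Chek1 and Exo1.

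In mismatch repair all 6 members were below 0, with a median of -0.19 and a range from -0.33 to -0.04, and 0 passed with or without the block, while 1 had an unadjusted p under 0.05. Msh6, which pairs with its MutS partner to find single mismatches and short loops, read 13.19, 13.19 and 13.29 on the knockout arrays, against 13.44, 13.41 and 13.38 on the wild type arrays. The 3 knockout values lay below the 3 wild type values, at a difference of -0.19 ± 0.07 (SE; limma adjusted p = 0.316; 0.0890 with the block). Msh3, the MutS protein for larger loops, differed by -0.20 at its probe set of highest mean, and its other tested probe sets by 0.03 and -0.60. Its genotypes overlapped at the first of these, with knockout arrays from 9.07 to 9.56 and wild type arrays from 9.43 to 9.64.

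Among the MutL genes, Pms2, the MutL subunit with the nicking activity, differed by -0.17 (95% interval -0.51 to 0.16), and its 2 other probe sets by -0.06 and -0.55. Mlh3, known from meiotic crossing over, differed by -0.21 (-0.54 to 0.11), and Pms1 by -0.33 (-0.83 to 0.17). Pms1 was the widest of the 6 in its spread over arrays, at 9.79, 9.22 and 9.19 in knockout and 10.10, 9.49 and 9.61 in wild type cells. In both genotypes the array numbered 1 was the highest, and within the 3 numbers Pms1 differed by -0.31, -0.27 and -0.41 (limma adjusted p = 0.638; 0.0683 with the block).

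Exo1, the exonuclease that removes the mismatched strand and also resects broken ends, gave unlike values at its 3 probe sets. At 1418026_at, its probe set of highest mean, the knockout arrays read 10.80, 10.96 and 11.06 and the wild type arrays 10.76, 11.12 and 11.07, a difference of -0.04 with overlapping genotypes. At 1418027_at the difference was 0.03. At 1430225_at the knockout arrays read 5.23, 5.39 and 5.49 and the wild type arrays 6.53, 6.66 and 6.72, with a wide gap between the genotypes. This difference of -1.27 ± 0.25 (SE) missed the threshold without the block (limma adjusted p = 0.0752) and passed with it (0.0231). Without the intensity trend it passed too (0.0383). The knockout mean of 5.37 lay just over the filter value of 5.27, and 1 of the 3 knockout arrays lay under it, so this 2.40-fold difference was measured at a dim signal. Against 1418026_at on the same arrays the gap differed by -1.22 between the genotypes (exact two-sided permutation test, p = 0.1, the smallest possible), again a pair chosen after its values were seen.

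**Figure D4:**
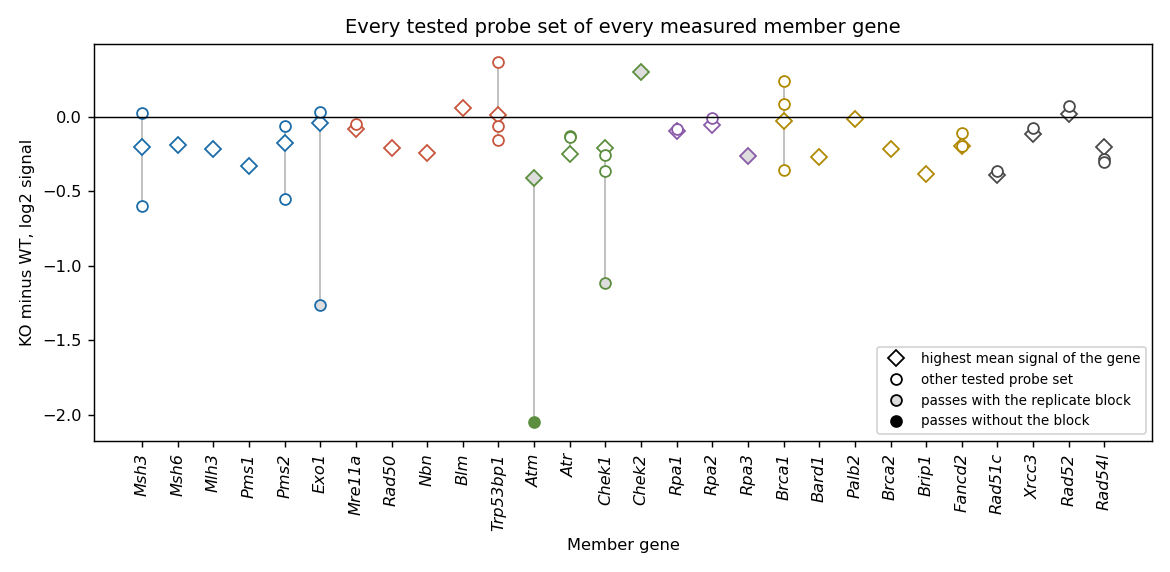
Knockout minus wild type difference on the log2 scale (vertical axis) of all 56 tested probe sets, by member (horizontal axis), with diamonds for the probe set of highest mean grey fill for those past the threshold with the replicate block and solid fill for the 1 past it without the block. The 3 lowest points, Atm at -2.05, Exo1 at -1.27 and Chek1 at -1.12, belong to probe sets that are not the one of highest mean of their gene.

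Across all 56 tested probe sets, 46 were below 0, against 48.6% of all probe sets tested. The knockout values lay wholly below the wild type values at 17 of them (8.99% of all) and wholly above at 1 (9.16% of all). With the replicate block 5 fell and 1 rose, where 4.39% and 3.49% of all probe sets did (7.88% in either direction). Without both arrays numbered 1, 3 fell, where 7.52% of all probe sets passed in either direction. Several members have more than 1 probe set among the 56, so these are not 56 independent measurements. A difference of 2-fold or more was reached at 3 probe sets, those of Atm, Exo1 and Chek1 given above, and by 0 members at the probe set of highest mean. The share of all tested probe sets with such a difference is not given here, so whether 3 of 56 is unusual is not known. Another 7 probe sets were too dim to be tested.

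The genes of break sensing and end resection had a median of -0.08 over 5 measured members, with 0 past the threshold in either fit and 0 with an unadjusted p under 0.05. Nbn, which brings Atm to the break, read 8.61, 8.74 and 8.66 on the knockout arrays, against 8.88, 9.04 and 8.82 on the wild type arrays. The genotypes did not overlap, and the difference was -0.24 ± 0.14 (SE; limma adjusted p = 0.568; 0.246 with the block). Rad50, the partner that bridges the ends, differed by -0.21 (95% interval -0.54 to 0.12), and Mre11a, the nuclease of the complex, by -0.08 (-0.34 to 0.18). Blm, a helicase that resects ends and dissolves joined molecules, differed by 0.06 (-0.27 to 0.38).

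Trp53bp1, which restrains resection and favours end joining, differed by 0.01 (-0.23 to 0.25) at its probe set of highest mean. Its other tested probe sets differed by -0.16, 0.37 and -0.06 with limma adjusted p from 0.561 to 0.975. At 1426957_at the knockout arrays read 9.56, 9.55 and 9.56 and the wild type arrays 9.71, 9.64 and 9.79, without overlap. At 1435609_at the direction was the other one, with 7.35, 7.82 and 7.79 on the knockout arrays and 7.15, 7.51 and 7.20 on the wild type arrays, which overlapped.

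Among the subunits of replication protein A, which coats single-stranded DNA, Rpa3, the smallest, was the 1 that fell with the replicate block. It read 11.81, 11.59 and 11.76 on the knockout arrays, against 12.02, 11.98 and 11.97 on the wild type arrays. All knockout arrays were lower, with wild type arrays close to each other, and the difference was -0.27 ± 0.09 (SE; limma adjusted p = 0.298; 0.0455 with the replicate block). Rpa3 passed in 1 of 13 alternatives, the one with the block. Rpa1, the large subunit that binds DNA, differed by -0.09 (95% interval -0.25 to 0.06) and Rpa2 by -0.06 (-0.35 to 0.24). Their second probe sets differed by -0.08 and -0.01. The difference between subunits was not tested.

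The Brca and Fanconi mediators were below 0 at all 6 members, with a median of -0.21, 0 past the threshold in either fit and 0 with an unadjusted p under 0.05. Brca2, which acts on the resected single strands ahead of strand exchange, read 10.72, 10.74 and 10.75 on the knockout arrays and 10.90, 11.08 and 10.88 on the wild type arrays. Brip1, the helicase that binds Brca1, read 7.54, 7.43 and 7.36 on the knockout arrays and 8.02, 7.69 and 7.77 on the wild type arrays. In both genes the 3 knockout values were the 3 lowest, with differences of -0.22 ± 0.10 and -0.38 ± 0.17 (SE; limma adjusted p = 0.477 and 0.442; 0.144 and 0.182 with the block).

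Brca1, the ubiquitin ligase that promotes resection, and its partner Bard1 gave different values. Brca1 differed by -0.03 (95% interval -0.28 to 0.23) at its probe set of highest mean, where knockout arrays ran from 10.89 to 11.12 and wild type arrays from 10.95 to 11.16. Its 3 other probe sets differed by 0.08, -0.35 and 0.24, with limma adjusted p of 0.911, 0.541 and 0.857. Bard1 differed by -0.27 (-0.73 to 0.19). Palb2, the link between Brca1 and Brca2, differed by -0.02 (-0.32 to 0.28). Fancd2, the Fanconi protein that is ubiquitinated at crosslinks, differed by -0.19 (-0.57 to 0.19), with its other tested probe sets at -0.11 and -0.19.

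Of the strand exchange genes, 3 of 4 measured members were below 0, with a median of -0.16, 0 past the threshold in either fit and 0 with an unadjusted p under 0.05. Rad51c, which assists strand exchange, read 8.97, 8.25 and 8.88 on the knockout arrays, against 9.26, 8.98 and 9.04 on the wild type arrays. The knockout array numbered 2 was far below the others, and the difference was -0.39 ± 0.21 (SE; limma adjusted p = 0.540; 0.111 with the block). Its other probe set differed by -0.36, where the lowest array was knockout number 3, at 8.20.

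Rad54l, a motor protein that helps strand invasion, read 10.42, 10.19 and 10.35 on the knockout arrays and 10.56, 10.42 and 10.57 on the wild type arrays. The genotypes met at 10.42 with no overlap, and the difference was -0.20 ± 0.12 (SE; limma adjusted p = 0.571; 0.182 with the block). Its 2 other tested probe sets differed by -0.28 and -0.30, also without overlap. Rad52, which anneals single strands, differed by 0.02 (95% interval -0.46 to 0.49) and 0.07 at its 2 probe sets, and Xrcc3, which works in a complex with Rad51c, by -0.12 (-0.54 to 0.31) and -0.07.

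**Figure D5:**
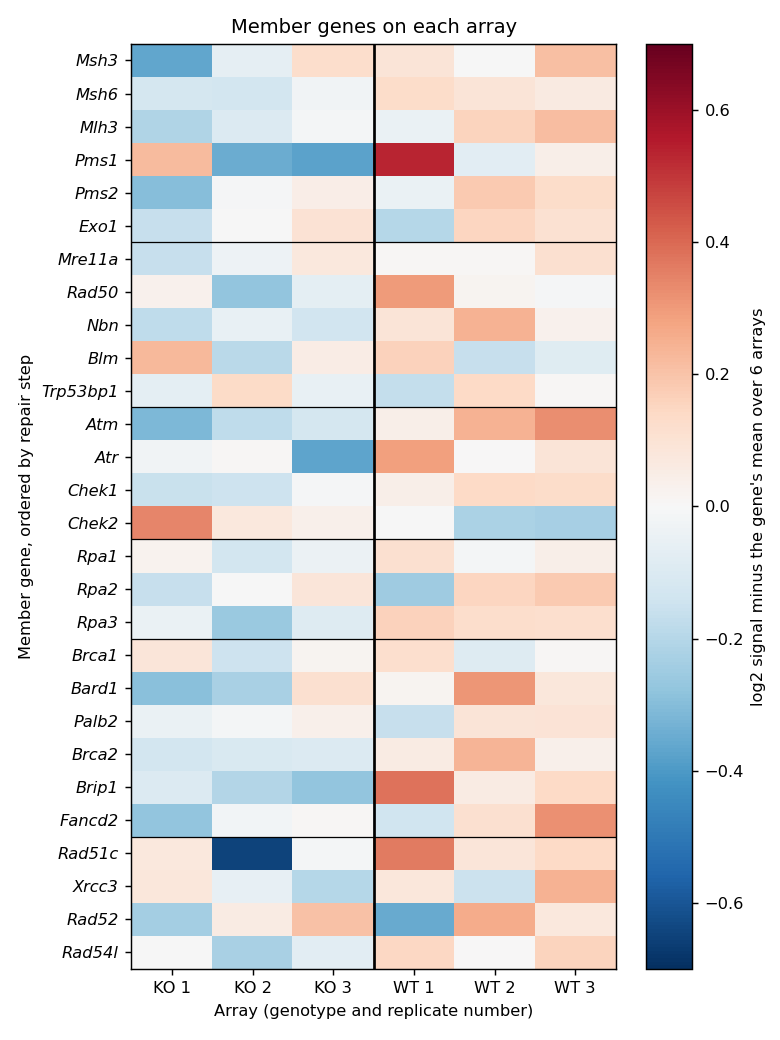
Log2 signal of each measured member at its probe set of highest mean, minus its mean over the 6 arrays (colour scale), with knockout arrays on the left, wild type arrays on the right and lines between repair steps. The knockout side is mostly blue (low) and the wild type side mostly red (high), Chek2 is reversed, and in Pms1 the arrays numbered 1 are the highest of each genotype.

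Genes of the neighbouring repair pathways and of DNA replication, which shares proteins and cell cycle timing with repair, were counted in the same way. None of the tested genes of these 5 lists passed limma's threshold without the block, which 0.736% of all genes passed. Of all genes tested, 50.1% were below 0 and 13.4% had an unadjusted p under 0.05. With the block 5.75% of all genes fell and 4.13% rose. Of 28 other recombination and checkpoint genes, 18 were below 0, with a median of -0.10 and 4 with an unadjusted p under 0.05, and with the block 2 fell (Dna2 and Wrn) and 1 rose (H2ax, listed as H2afx). The brightest of them, Swi5 and Sfr1, which form a complex that assists strand exchange, differed by 0.01 and 0.04. Of 12 Fanconi genes 6 were below 0, with a median of -0.04 and 2 with an unadjusted p under 0.05, and Fanca and Fanci fell with the block. Ube2t and Fancl, the conjugating enzyme and the ligase that act on Fancd2, were the brightest of these and differed by 0.22 and 0.04. Of 9 end joining genes 7 were below 0, with a median of -0.09 and 2 with an unadjusted p under 0.05. Xrcc5, the larger subunit of the Ku complex that binds broken ends, fell with the block by 0.52 (adjusted p = 0.00261), as did the ligase gene Lig4 by 0.54 (0.0239). Genes named here as past the threshold with the block were chosen after their values were seen. Xrcc6, the other Ku subunit, differed by 0.00, and Parp1, a sensor of strand breaks, by -0.18. Wrn, Fanca and Lig4 lie on chromosome 8, each as the 1 such gene of its list. Without them, 1 gene in each of these lists fell with the block. The medians were then -0.08 for other recombination genes, 0.00 for Fanconi genes and -0.09 for end joining genes, a count made after the data were seen. Values over all genes of chromosome 8 are not given here, and the part of that chromosome in these differences was not tested.

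The 18 tested genes of base and nucleotide excision repair had a median of 0.00, with 9 below 0, 3 with an unadjusted p under 0.05 and 0 past the threshold with the block. Among them Apex1, the endonuclease for sites that have lost their base, and Ddb1, a subunit of a damage recognition complex, differed by 0.20 and 0.19. Among these lists, DNA replication genes had the median nearest to that of the members, at -0.13. Below 0 were 23 of 31 (74.2%), against 77.8% of the end joining genes and 85.7% of the members. An unadjusted p under 0.05 was found for 10 replication genes (13.4% of all genes). With the block 7 replication genes fell and 1 rose, where 5.75% and 4.13% of all genes did. Of the 31, 6 lie on chromosome 8, and without them 17 of 25 were below 0, with a median of -0.10, and with the block 2 fell and 1 rose, a count made after the data were seen. None of the 30 members lies on chromosome 8. Pcna, the sliding clamp that replication and mismatch repair share, differed by -0.12, and the helicase subunit gene Mcm5, which lies on chromosome 8, by -0.21 (limma adjusted p = 0.546 and 0.273). With the block Mcm5 fell (0.0352) and Pcna missed the threshold (0.250). The replication genes averaged 11.71, 11.61 and 11.72 on the knockout arrays and 11.78, 11.80 and 11.84 on the wild type arrays, without overlap, and their part in the members' differences was not tested.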

How the data were processed

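Total RNA of 3 Setd2 knockout and 3 wild type mESC samples was hybridised to Affymetrix mouse genome arrays. The deposited values are log2 signals, which came from MAS5 per the submitters' processing notes. Its version and settings are not given in the sources used here. On the linear scale the 2% trimmed mean signal ran from 496.8 to 497.1 over the arrays, and no further normalization was applied. Precision is limited by there being 6 arrays. Each of the 6 columns was mapped to its genotype by accession and title.

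Of 45037 probe sets, 34945 named 1 gene, 932 several and 9160 were unnamed here. Chromosomes and gene order came from a RefSeq table of assembly GRCm38.p6, which matched 34741 probe sets. The 27022 probe sets with a mean of at least 5.27, the 40th percentile of all means, were fitted with limma 3.58.1 in R 4.3.3 (lmFit, eBayes with an intensity trend, two-sided, Benjamini-Hochberg adjustment over all tested probe sets, threshold 0.05), and the fit was tested on simulated data. A gene stands at its tested probe set of highest mean.

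The members and lists were chosen with earlier results of these data known. Named were Setd2 and all members, each array's value being given for members past the threshold in either fit or without overlap between the genotypes. Of the other lists, up to 4 genes past the threshold or the 2 of highest mean were named.

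Both genotypes carry replicate numbers 1 to 3. Deviations from the genotype means correlated at 0.50, 0.23 and 0.24 between arrays of the same number, each over the bound of 0.1. Between unlike numbers they correlated at -0.37 to 0.23. Knockout array 3 with wild type array 2 gave 0.23, and knockout array 2 with wild type array 3 gave 0.17, both over the bound. So the correlations set number 1 apart but do not tell numbers 2 and 3 from each other. The pairing rests on these correlations, since no label says what a number shares. For the members, the blocked value is given where it changes a call. Alternatives tried were the block, other filters, no trend, other scalings, other choices of probe set and leaving out arrays.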

Additional observations from a re-analysis of the deposited data

How the results depend on the processing

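The number of calls moved with the block, the trend and the arrays used. Over all probe sets, 74 rose and 101 fell without a block, 944 and 1185 with the replicate block, 30 and 27 without the intensity trend, 919 and 1114 without both arrays numbered 1, and 17 to 158 and 14 to 273 without each array in turn. Among member probe sets, 5 fell and 1 rose with the replicate block, 2 fell without the trend and 3 without both arrays numbered 1. Among member genes, 2 fell and 1 rose with the block, 1 fell without both arrays numbered 1, and 1 fell with the mean over all tested probe sets of a gene. The causes were not tested. In the other lists the counts higher and lower with the replicate block, then without both arrays numbered 1, were 1 and 2, then 1 and 3, for other recombination genes; 0 and 2, then 0 and 2, for Fanconi genes and likewise for end joining genes; 0 and 0, then 1 and 2, for excision repair; 1 and 7, then 1 and 6, for replication; and 2 and 1, then 1 and 1, for feeder markers. Leaving out each array gave 0 to 1 higher among other recombination genes and 0 to 2 lower among replication genes. Setd2 stayed at -0.82 without the trend but missed the threshold (limma adjusted p = 0.0916), and ran from -0.87 to -0.76 without each array.

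The checkpoint kinase median was -0.33 with the mean over all tested probe sets. The replication protein A median was -0.14 with arrays centred on their medians and -0.19 to -0.068 without each array, and without each array the medians of the other steps ran from -0.27 to -0.15 (Brca and Fanconi), -0.14 to -0.039 (break sensing), -0.23 to -0.12 (mismatch repair), -0.24 to -0.099 (strand exchange) and -0.25 to -0.19 (checkpoint kinases). Members near 0 changed sign with none past the threshold: Trp53bp1 to -0.0018 with quantile normalization, -0.031 with centring and -0.034 without both arrays numbered 1, and Rad52 to -0.023 with centring and -0.032 without those arrays. Without each array in turn Blm ran from -0.039 to 0.17, Brca1 from -0.078 to 0.040, Exo1 from -0.15 to 0.027, Palb2 from -0.10 to 0.029, Rad52 from -0.16 to 0.15, Rpa2 from -0.19 to 0.021 and Trp53bp1 from -0.071 to 0.083. Of members that kept their sign, those that moved by over 1.5 times without 1 array were Atr (-0.32 to -0.13), Fancd2 (-0.31 to -0.081), Mre11a (-0.14 to -0.022), Msh3 (-0.31 to -0.068), Pms1 (-0.53 to -0.15), Pms2 (-0.24 to -0.070), Rad50 (-0.28 to -0.11), Rad51c (-0.53 to -0.17), Rpa1 (-0.13 to -0.054) and Xrcc3 (-0.22 to -0.024), with 0 calls among them. The median over all members stayed between -0.22 and -0.16 without each array, and was -0.24 with centring.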
